A study of Mus musculus with 12 samples.

Results

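The comparison described here sets the distal sciatic nerve of the mouse at day 3 after a crush against the same segment at day 0. It rests on the 3 arrays titled day 3 and the 3 titled day 0, which are 6 of the 12 arrays of the series, and these arrays were chosen by their titles alone. All mice were C57Bl6 of about 2 months, the right nerve was compressed for 30 s at the upper thigh, and 0.5 cm of nerve distal to the crush was taken. RNA of 6 mice was pooled for each array, so 18 mice stood behind each day, and no genotype, transgene or drug separated the groups. The day 0 nerves carry the same surgery in the labels and were taken at 0 d, so uninjured nerve is no group here. The 3 pools of a day are biological replicates in the study's design text, and a bulk pool cannot tell fewer cells of a type from less RNA per cell.

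A crush severs the axons of a peripheral nerve and leaves its outer sheath in place. Distal to the crush the cut axons degenerate, Schwann cells leave the myelinating state and divide, and macrophages and neutrophils enter to clear debris. MicroRNAs are short RNAs cut from a hairpin within a longer primary transcript, often an intron of a host gene or a long non-coding RNA, and the bases next to their 5′ end, the seed, pair with target messenger RNAs. The array reads long RNA with probes of 60 bases, so a probe lying in a hairpin measured transcripts that hold the hairpin and not the cut, mature microRNA.

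The files give probes by ID and sequence, and names were found by exact sequence match to RefSeq tables of the build GRCm38.p6. Of the 1005 hairpins in the RefSeq table, 835 had a probe of the same strand that matched no other hairpin over at least 40 bases. Windows around gene starts ran from 250 bases before the start to 50 bases after it. Of the array's probes, 579 matched the window of 1 gene over at least 30 bases. Bases of such a probe that lay beyond the window were not matched. Of these, 295 lay inside a gene on the probe's strand and are described by that gene. The other probes of the array are unnamed here.

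The probes and mature sequences below are those on which the microRNA results turn. In the probe sequences, read 5′ to 3′ from the deposited arrays, capitals mark the bases that RefSeq assigns to a mature arm.
Mir147: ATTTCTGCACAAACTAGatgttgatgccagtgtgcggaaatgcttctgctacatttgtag
Mir21a: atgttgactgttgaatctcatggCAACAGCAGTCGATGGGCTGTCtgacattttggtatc
Mir223: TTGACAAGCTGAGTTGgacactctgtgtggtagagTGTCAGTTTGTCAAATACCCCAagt
Mir29a: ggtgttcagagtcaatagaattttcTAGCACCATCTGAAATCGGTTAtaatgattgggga
Mir29c: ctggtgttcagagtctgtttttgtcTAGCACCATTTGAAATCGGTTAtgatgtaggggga
Mir218-1: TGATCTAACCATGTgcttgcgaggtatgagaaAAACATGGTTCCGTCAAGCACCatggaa
Mir100: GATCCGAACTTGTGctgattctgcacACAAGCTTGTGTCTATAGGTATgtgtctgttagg
Mir99a: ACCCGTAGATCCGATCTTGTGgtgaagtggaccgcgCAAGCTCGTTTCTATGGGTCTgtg
In the mature sequences from RefSeq, capitals mark the seed, bases 2 to 8.
miR-147-5p: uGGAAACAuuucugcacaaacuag
miR-21a-5p: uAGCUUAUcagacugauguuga
miR-223-3p: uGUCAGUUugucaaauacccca
miR-29a-3p: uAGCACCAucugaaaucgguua
miR-29b-3p: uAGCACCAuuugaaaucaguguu
miR-29c-3p: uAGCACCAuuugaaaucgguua
miR-99a-5p: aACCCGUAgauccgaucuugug
miR-100-5p: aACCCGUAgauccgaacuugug
let-7c-5p: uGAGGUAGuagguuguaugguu
let-7f-5p: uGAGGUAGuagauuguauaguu
miR-218-5p: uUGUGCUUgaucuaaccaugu
The 3 tested members of the miR-29 family share the seed AGCACCA, and miR-99a and miR-100 share ACCCGUA.

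Values are log2 signals after scaling each array to a common 75th percentile, and a difference of 1 on this scale is 2-fold. Tests were kept to probes whose signal stood well above background throughout the 3 arrays of some time point. A call is a Benjamini-Hochberg adjusted p under 0.05 in limma fitted to all 12 arrays, and every adjusted p below comes from that fit unless another setting is named. Of 62803 probes tested, 44.4% were called, 21.7% higher and 22.7% lower at day 3. Between 66.7% and 79.5% of the spots of the 6 arrays were well above background and none was saturated. Replicates 1 and 2 of both days lay on slide 1 and replicate 3 of both days on slide 2, which was scanned on another day and had the lowest shares of spots above background, 69.0% at day 0 and 66.7% at day 3.

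Among the hairpins, 81 rose and 26 fell of 527 tested, and the remaining 308 of the 835 listed did not pass the background filter. This share of 20.3% called lay below the 44.4% of all probes. Among hairpins above background on all 6 arrays, the leading rises were those of miR-147, miR-763 and miR-21a and the leading falls those of miR-218-1, miR-100, miR-6363 and miR-195a. The hairpins of miR-223 and miR-29a were seen at day 3 only. Of these called hairpins, 91 were well above background on all 6 arrays, 102 had no overlap between the days, and every one differed in the same direction on both slides. Lack of overlap was general among calls, since 27127 of the 27909 called probes of all kinds had no overlap between the days. With slide as a block 135 hairpins rose and 39 fell, and without the day 0 array of slide 2, 61 hairpins rose and 30 fell.

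The hairpin Mir147 (chr2:122640803-122640881, plus strand) lies within AA467197, and its microRNA is known to be induced in macrophages by bacterial signals. Its probe read 4.72, 4.51 and 4.81 in replicates 1 to 3 of day 0 and 9.90, 9.56 and 10.38 in those of day 3. Every day 3 array was far above every day 0 array. The mean rose from 4.68 ± 0.15 to 9.95 ± 0.41 (SD, n = 3), a log2 fold change of 5.27 (SE 0.31, adjusted p = 2.96e-07), or 38.6-fold. The difference was 5.12 on slide 1 and 5.57 on slide 2.

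Mir21a (chr11:86584067-86584158, minus strand) lies within Vmp1, an autophagy gene whose transcript carries miR-21, a microRNA raised in many injured and dividing tissues. It read 5.22, 5.66 and 5.66 at day 0 and 8.44, 7.90 and 8.69 at day 3. The groups did not overlap, and the log2 fold change was 2.83 (SE 0.22, adjusted p = 2.02e-06), or 7.10-fold. Mir763 (chr10:120447991-120448110, minus strand) lies within Hmga2, which encodes a chromatin protein of proliferating cells. It read 9.54, 9.45 and 8.95 at day 0 and 12.10, 11.89 and 12.94 at day 3, a log2 fold change of 2.99 (SE 0.25, adjusted p = 3.24e-06). The day 0 and day 3 values stood apart on both slides, by 2.50 on slide 1 and 3.99 on slide 2.

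Mir223 (chrX:96242817-96242926, plus strand) lies within the long non-coding gene F630028O10Rik, and miR-223 is characteristic of neutrophils and other myeloid cells. No day 0 array saw its probe well above background, with values of 1.69, 2.24 and 2.55, and every day 3 array did, with 5.4, 5.31 and 5.10. The day 3 level was at least 3.13-fold that of day 0 (adjusted p = 2.44e-05). This bound, and those that follow, set the mean of the bright day against the mean over the arrays of the dim day of the higher of the probe's own value and the lowest signal well above background. The adjusted p beside a bound belongs to the log2 difference of the fit, which used the values below background. The bound itself was not tested. Mir29a (chr6:31062660-31062747, minus strand) had the same pattern. It read 1.15, 1.17 and 1.70 at day 0 and 4.80, 4.01 and 5.17 at day 3, at least 2.06-fold higher (adjusted p = 2.62e-05).

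Smaller rises were seen for Mir214 and Mir1983. Mir214, in Dnm3os, a non-coding RNA that carries the miR-199a-2 and miR-214 hairpins, read 7.43, 7.70 and 7.81 at day 0 and 9.19, 8.96 and 8.59 at day 3. Its log2 fold change was 1.27 (SE 0.25, adjusted p = 0.00153), 1.51 on slide 1 and 0.78 on slide 2, where the call was lost (adjusted p = 0.202). Mir1983 read 6.2, 6.12 and 6.26 at day 0 and 7.33, 7.33 and 7.70 at day 3, a log2 fold change of 1.26 (SE 0.14, adjusted p = 2.97e-05). Mir692-2 was 1.11 higher on the log2 scale, at a mean signal of 17.20 at day 3, but its probe shares at least 25 bases with 9 other probes of the array, so which RNA it read is uncertain.

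**Figure D1:**
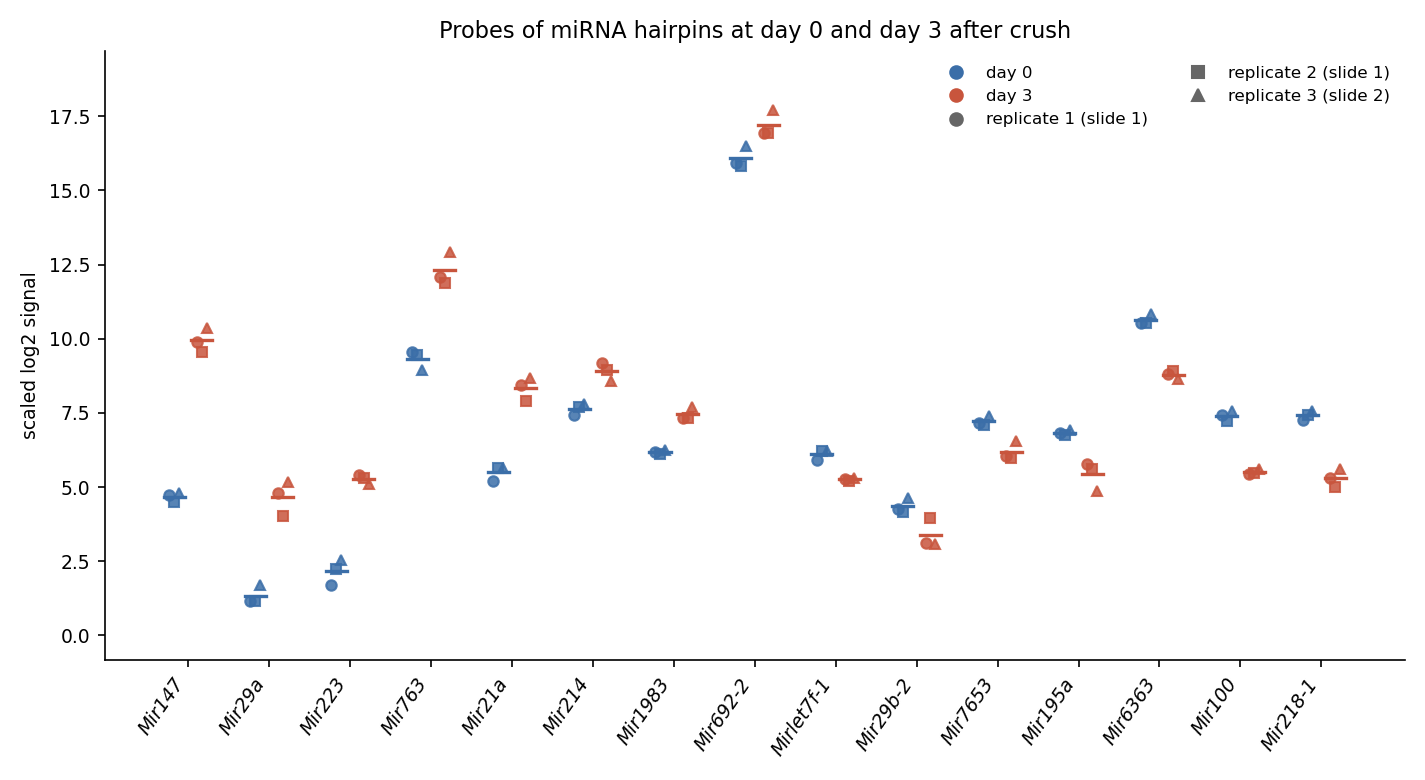
Scaled log2 signal (vertical axis) of the 15 hairpin probes named by rule, ordered by log2 fold change, on each array of day 0 (blue) and day 3 (red); horizontal bars are group means and marker shapes are replicates. Mir147 moved from 4.68 to 9.95 and Mir21a from 5.51 to 8.34, while Mir218-1 moved from 7.41 to 5.31 and Mir100 from 7.40 to 5.50, with no overlap between the days.

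Mir218-1 (chr5:48223942-48224051, plus strand) lies within Slit2, which encodes a secreted axon guidance protein. It read 7.26, 7.42 and 7.56 at day 0 and 5.31, 5.01 and 5.62 at day 3. The groups did not overlap, and the log2 fold change was -2.10 (SE 0.17, adjusted p = 2.20e-06), with -2.18 on slide 1 and -1.94 on slide 2. Mir6363 (chr16:50727132-50727245, plus strand) read 10.53, 10.52 and 10.83 at day 0 and 8.82, 8.90 and 8.63 at day 3, a log2 fold change of -1.84 (SE 0.13, adjusted p = 1.32e-06). Mir195a (chr11:70235042-70235135, plus strand), whose microRNA belongs to the miR-15/16 family that restrains the cell cycle, read 6.84, 6.75 and 6.93 at day 0. At day 3 it read 5.79, 5.63 and 4.86, the lowest on slide 2, a log2 fold change of -1.41 (SE 0.20, adjusted p = 1.75e-04). Mir7653, within Tlcd1, fell by 1.02 on the log2 scale (SE 0.17, adjusted p = 6.01e-04).

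Several of the falling hairpins belonged to the let-7 and miR-99/100 loci. Hairpins of these families sit together at several places in the genome, and let-7 microRNAs are known to be high in differentiated cells and to repress growth genes. The families described here and in the paragraphs on let-7 and miR-29 below were chosen after their values were seen. Mir100 (chr9:41531425-41531504, plus strand), in the long non-coding gene Mir100hg, read 7.42, 7.22 and 7.57 at day 0 and 5.43, 5.47 and 5.59 at day 3. It had a log2 fold change of -1.90 (SE 0.15, adjusted p = 2.31e-06). Mirlet7a-2, in the same gene, read 6.31, 6.30 and 6.2 at day 0 and 5.75, 5.93 and 5.38 at day 3, a log2 fold change of -0.58 (SE 0.20, adjusted p = 0.0396). Mir125b-1, the third tested hairpin within Mir100hg, differed from these and rose by 0.60 on the log2 scale (SE 0.21, adjusted p = 0.0352). At the locus on chromosome 16, Mir99a and Mirlet7c-1 both fell by 0.69 on the log2 scale (adjusted p = 0.0247 and 9.06e-04), and the 2 tested probes of Mirlet7c-1 gave -0.69 and -0.62.

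Of 9 tested hairpins named let-7, 3 fell, 1 rose and 5 were not called, a called share equal to the 44.4% of all probes. Mirlet7f-1 fell by 0.86 on the log2 scale (SE 0.11, adjusted p = 1.00e-04), but with normexp background correction the change was -0.31 (adjusted p = 0.0839). Mirlet7i rose by 0.47 on the log2 scale (SE 0.17, adjusted p = 0.0468), and the adjusted p was 0.0532 with the replicate number as a block. Mirlet7b at -0.31 (adjusted p = 0.237) and Mirlet7d at -0.34 (adjusted p = 0.0946) were not called. The let-7 hairpins thus did not share 1 direction.

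Members of the miR-29 family are known to target collagen messenger RNAs. Of its 4 listed hairpins 3 were tested, and these were called in both directions. Mir29a on chromosome 6 was higher at day 3, as given above. Mir29b-2 and Mir29c, which are neighbours on chromosome 1 in A330023F24Rik, were lower. Mir29c (chr1:195037547-195037634, plus strand) read 7.44, 7.49 and 7.61 at day 0 and 6.81, 7.02 and 6.93 at day 3, a log2 fold change of -0.59 (SE 0.16, adjusted p = 0.0117). Mir29b-2 read 4.27, 4.15 and 4.63 at day 0 and 3.12, 3.94 and 3.08 at day 3, where no array was well above background. The day 0 level was at least 1.18-fold that of day 3 (adjusted p = 0.00566), and with normexp background correction the call was lost (adjusted p = 0.858), as it was within slide 1 (adjusted p = 0.112). The seed family thus held hairpins with calls in both directions, as did the seed families of let-7, miR-25 and miR-195a. On chromosome 6 this rests on the Mir29a probe alone, which no day 0 array saw well above background.

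Several larger differences rested on hairpins that only some arrays of a day saw above background, and these were chosen after their values were seen. Mir6546, within Fcgr3, an immunoglobulin receptor gene of myeloid cells, was seen on 1 day 0 array and on all 3 of day 3. It read 3.64, 3.95 and 1.86 at day 0 and 4.97, 5.31 and 4.98 at day 3, a log2 fold change of 1.94 (SE 0.51, adjusted p = 0.00906), 1.35 on slide 1 and 3.12 on slide 2. Mir139, within the phosphodiesterase gene Pde2a, was seen on the same numbers of arrays and rose by 1.67 on the log2 scale (SE 0.42, adjusted p = 0.00736). Mir181b-2, within Nr6a1os, was seen on all 3 day 0 arrays and on 1 of day 3. It read 5.62, 5.74 and 5.90 at day 0 and 3.20, 4.00 and 3.85 at day 3, a log2 fold change of -2.07 (SE 0.24). The direction was the same on both slides for all 3 hairpins, which the call on these arrays favours. Values near background limit what can be said of the size of each change.

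**Figure D2:**
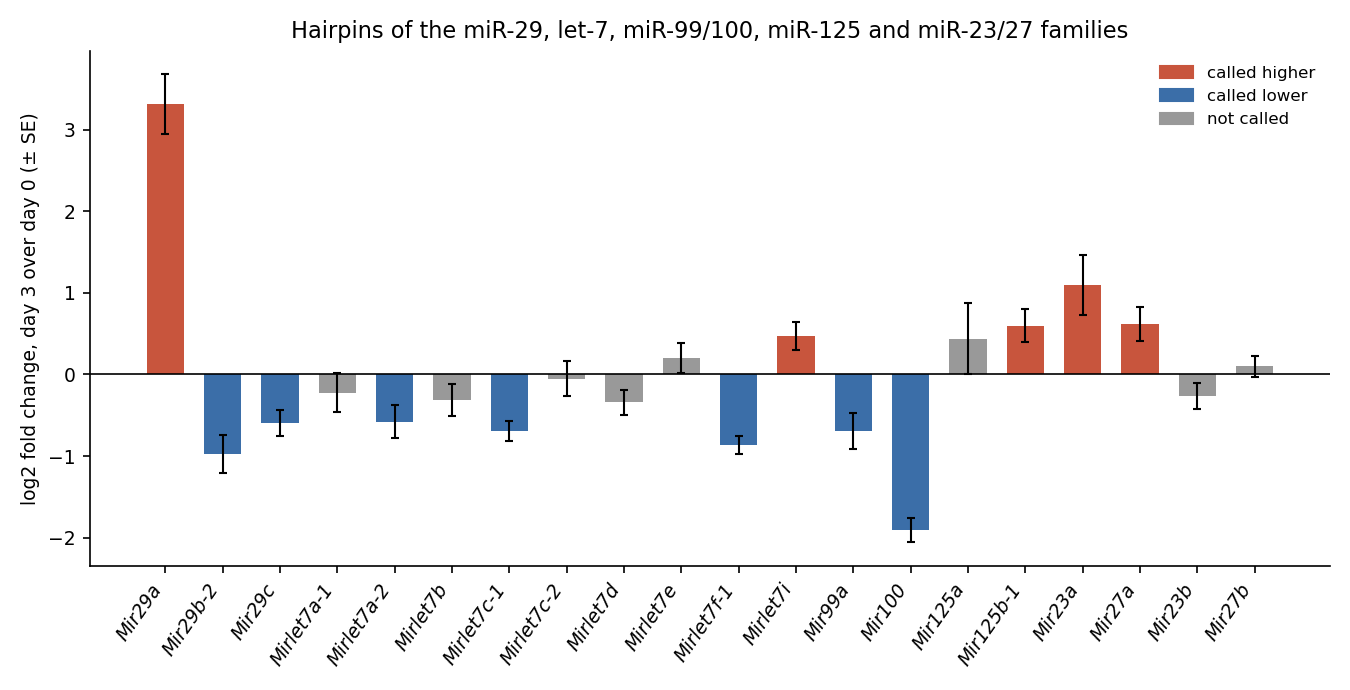
Log2 fold change of day 3 over day 0 (bars, with SE) for tested hairpins of the miR-29, let-7, miR-99/100, miR-125 and miR-23/27 families; red bars were called higher, blue lower and grey not called. Mir29a and its seed relatives Mir29b-2 and Mir29c lie on opposite sides of 0, and Mir100 at -1.90 is the lowest bar.

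Hairpins that lie within 10 kb of each other on 1 strand formed 27 clusters with at least 2 tested members, and 14 clusters held a called hairpin. Of these, 6 held 2 calls, and in each of the 6 both calls had the same direction. Of all called hairpins 75.7% were higher, so 2 calls can share a direction without a link between them. The agreement also depends on the gap of 10 kb. Mir100 and Mirlet7a-2, both lower, formed 1 cluster, and Mir125b-1, called higher within the same gene Mir100hg, lay outside it. Whether clusters agreed more often than unrelated hairpins was not tested. The hairpins named in the rest of this paragraph were chosen after their values were seen. Mir23a and Mir27a on chromosome 8 both rose, by 1.1 (SE 0.37, adjusted p = 0.0307) and 0.61 (SE 0.21, adjusted p = 0.0328) on the log2 scale. Their relatives Mir23b and Mir27b on chromosome 13 were not called, at -0.26 and 0.10. Mir675, known to be cut from the imprinted non-coding RNA H19, rose by 1.07 on the log2 scale (SE 0.28, adjusted p = 0.00978). Mir25, in the replication gene Mcm7, rose by 0.81 (SE 0.18, adjusted p = 0.00308), while its neighbours Mir93 at 0.09 and Mir106b at 0.15 were not called.

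By host, 48 hairpins in coding genes rose and 9 fell of 316 tested, with a median log2 difference of 0.21. Of 42 tested in long non-coding genes, 8 rose and 8 fell, with a median of 0.10. Of 139 tested outside the genes of the table, 22 rose and 5 fell, with a median of 0.20. The median over all 527 hairpins was 0.20, beside 0.03 for all tested probes and 0.21 for the 2444 tested probes of 55% G and C or more. The hairpin median was 0.11 on slide 1 and 0.38 on slide 2, and 3.54e-05 without the day 0 array of slide 2. With normexp background correction 82 hairpins rose and 12 fell, so 87.2% of the called hairpins were higher, against 75.7% in the main setting.

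Hairpin probes were dimmer and richer in G and C than the rest, with a median log2 signal of 6.80 and 55% G and C bases, beside 8.11 and 41.7% for all tested probes. Called shares rose with signal over all probes, from 36% in the dimmest of 4 equal classes to 51.1% in the brightest. In the dimmest class 20.3% of 197 hairpins were called, and in the brightest 27% of 37. Probes of 45% to 55% G and C were called in 36.3% of cases and those of 35% to 45% in 49.2%. Of the 2444 probes of 55% or more, 32.6% were called, with 572 higher and 224 lower. The part of signal and base composition in the low share of hairpins called was not tested.

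**Figure D3:**
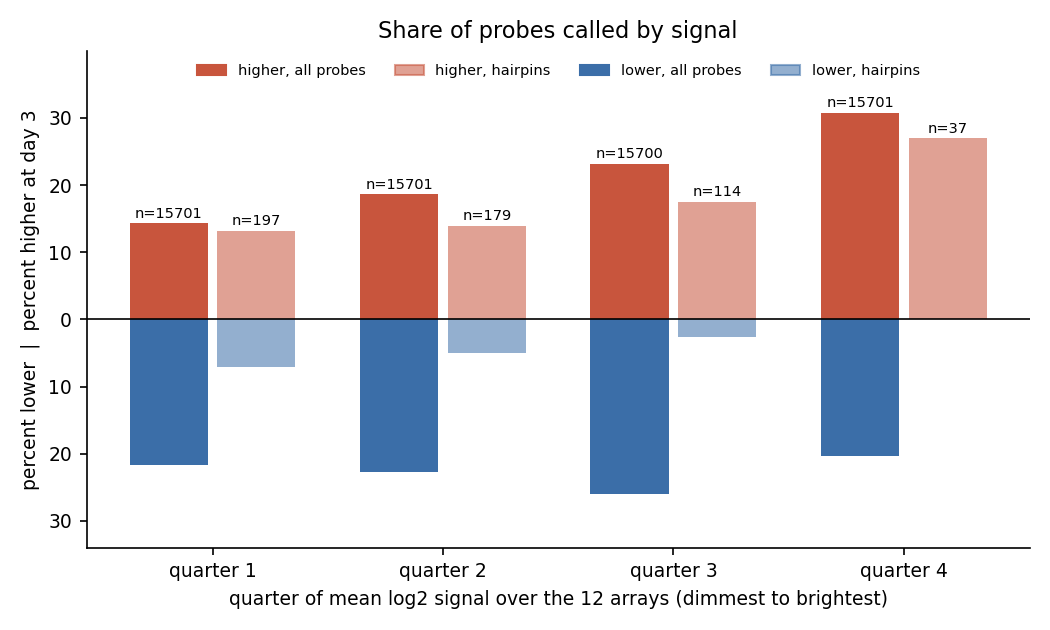
Percent of tested probes called higher (above 0) and lower (below 0) at day 3, by 4 equal classes of mean log2 signal, for all probes (dark) and hairpin probes (pale), with the number tested above each bar. Hairpins were called in 19% to 27% of cases in the 4 classes, beside 36% to 51.1% of all probes, and the brightest 37 hairpins held 10 rises and no fall.

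Probes within genes gave a further view of the same 6 arrays. They were named by rule from the largest differences and from planned gene lists, except those said below to be chosen after their values were seen. The gene named is the one whose span on the probe's strand covers the matched bases, and whether they are exonic or intronic was not analysed here. Whether a probe read RNA of that gene or another transcript of the same place was not tested. Probes in genes of an inflammatory cytokine, a leukocyte protease and replication histones read higher at day 3. Those in genes of an adhesion molecule and a laminin chain read lower. Among the 402 tested probes of the start windows, 52 rose and 62 fell, a share of 28.4% beside the 44.4% of all probes. Those that lay inside a gene on their strand, upstream or opposite to the gene whose window they matched, were called in 43.2% of 146 cases and those inside no gene in 15.7% of 191.

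Il1b, the gene of the inflammatory cytokine interleukin 1 beta, was read by a probe at chr2:129369732-129369791 on the minus strand, which lies opposite the start window of Il1bos. It read 2.44, 1.92 and 1.89 at day 0, where no array was well above background, and 6.65, 5.34 and 7.30 at day 3. The day 3 level was at least 7.01-fold that of day 0 (adjusted p = 1.69e-05). Adam8, a membrane protease of leukocytes, was read by a probe of which 32 bases matched, at chr7:139978974-139979005 on the minus strand. It read 8.81, 9.08 and 9.13 at day 0 and 13.20, 13.26 and 13.85 at day 3, a log2 fold change of 4.43 (SE 0.24, adjusted p = 1.44e-07), or 21.6-fold. Both probes read higher on every day 3 array, and that of Adam8 varied less between arrays of a day than that of Il1b.

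Slfn1, a Schlafen gene known from the growth control of T cells, read 5.22, 5.12 and 4.11 at day 0 and 7.88, 8.64 and 8.05 at day 3, a log2 fold change of 3.37 (SE 0.37, adjusted p = 2.52e-05). Hyal1, a hyaluronan-degrading enzyme, read 6.25, 6.22 and 6.2 at day 0 and 8.67, 8.64 and 9.09 at day 3, a log2 fold change of 2.58 (SE 0.17, adjusted p = 6.05e-07). Ntn5, a gene of the netrin family, had a log2 fold change of 2.10 (SE 0.35, adjusted p = 5.14e-04), and its day 3 values of 12.20, 11.37 and 13.11 were spread more widely than its day 0 values of 10.08, 10.08 and 10.24. Cln3, a lysosomal membrane protein gene, was not well above background at day 0 and was at least 2.35-fold higher at day 3 (adjusted p = 1.47e-05). Casp6, a caspase known from axon degeneration and chosen after its values were seen, rose by 1.1 on the log2 scale (SE 0.15, adjusted p = 1.31e-04). Nek2, a kinase gene of the centrosome, had a probe opposite its start that was at least 1.86-fold higher at day 3 (adjusted p = 0.00595), a call lost with normexp background correction (adjusted p = 0.232) and within slide 2 (adjusted p = 0.193).

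Of 646 genes in lists drawn up for nerve injury, 9 had a tested window probe within them or opposite their start. The probes of Zeb2 and Alas2 lie on the opposite strand and in no gene on that strand, so they do not read the RNA of these genes. Il1b and Adam8 are given above. Of the repair Schwann cell list, Uchl1, a deubiquitinating enzyme abundant in neurons, rose by 0.996 on the log2 scale (SE 0.19, adjusted p = 0.00141), by 0.66 on slide 1 and 1.67 on slide 2. Opposite the start of Zeb2, a transcription factor gene needed for Schwann cell differentiation, 1 probe rose by 0.99 (adjusted p = 2.06e-05) and another, at 0.16, was not called (adjusted p = 0.368). The neuronal intermediate filament gene Prph at -0.45 (adjusted p = 0.0896) and a probe opposite Alas2, an enzyme gene of red cell precursors, at -0.06 (adjusted p = 0.778) were not called. The remaining members, Lamb2, Ckm and Eno3, follow below.

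Histone genes, whose clustered copies are transcribed when DNA is replicated, were read by 7 window probes. Of the 6 tested, 5 rose, none fell, and H4c8 at -0.22 was not called (adjusted p = 0.0813). Over all tested probes 21.7% rose, and of the 402 tested window probes 52 rose. The list of histone probes was formed after the values were seen. H4c9 read 6.69, 6.73 and 6.75 at day 0 and 9.59, 9.57 and 10.11 at day 3, a log2 fold change of 3.03 (SE 0.17, adjusted p = 2.12e-07). H3c4 read 6.18, 5.59 and 5.47 at day 0 and 8.25, 8.05 and 8.45 at day 3, a log2 fold change of 2.51 (SE 0.20, adjusted p = 2.42e-06), and H1f3 had 2.41 (SE 0.24, adjusted p = 1.25e-05). H2ac15, not well above background at day 0, was at least 6.2-fold higher at day 3 (adjusted p = 1.12e-06). The tested histone probes shared 30 to 47 bases with the windows they matched. Histone genes have near-identical copies, so the copy that each probe read is uncertain.

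Among window probes above background on all 6 arrays Pnkd had the largest fall, with 10.34, 10.19 and 10.74 at day 0 and 6.57, 6.44 and 6.59 at day 3, a log2 fold change of -3.89 (SE 0.18, adjusted p = 5.97e-08). Cadm2, a cell adhesion molecule of axons and glia, read 12.19, 12.03 and 12.55 at day 0 and 9.64, 9.65 and 9.53 at day 3, a log2 fold change of -2.65 (SE 0.17, adjusted p = 4.75e-07). Plce1, a phospholipase C gene, read 9.89, 10.01 and 10.16 at day 0 and 7.97, 8.10 and 7.26 at day 3, a log2 fold change of -2.24 (SE 0.22, adjusted p = 9.64e-06). In these 3 genes every day 3 array lay below every day 0 array. The rule also named falls of a probe opposite Gm14502, at -1.89 (adjusted p = 3.10e-06), and one in the window of 1700112J05Rik, at -1.78 (adjusted p = 2.13e-07).

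Further falls were those of 1700113H08Rik, Lamb2, Cd9 and Bc1, of which Cd9 and Bc1 were chosen after their values were seen. 1700113H08Rik read 9.09, 8.90 and 9.47 at day 0 and was not well above background at day 3, with a day 0 level at least 35-fold that of day 3 (adjusted p = 2.86e-07). Lamb2, which encodes a laminin chain of basal laminae, read 15.86, 15.86 and 16.20 at day 0 and 14.65, 14.74 and 14.58 at day 3, a log2 fold change of -1.31 (SE 0.14, adjusted p = 1.65e-05). Cd9, a tetraspanin found on Schwann cells, had -1.21 (SE 0.14, adjusted p = 4.48e-05). Bc1, a non-coding RNA of neurons that is carried into dendrites and axons, read 17.51, 17.34 and 17.99 at day 0 and 16.20, 16.30 and 17.14 at day 3, a log2 fold change of -1.07 (SE 0.24, adjusted p = 0.00359). Its groups did not overlap, and the difference was -1.17 on slide 1 and -0.86 on slide 2.

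**Figure D4:**
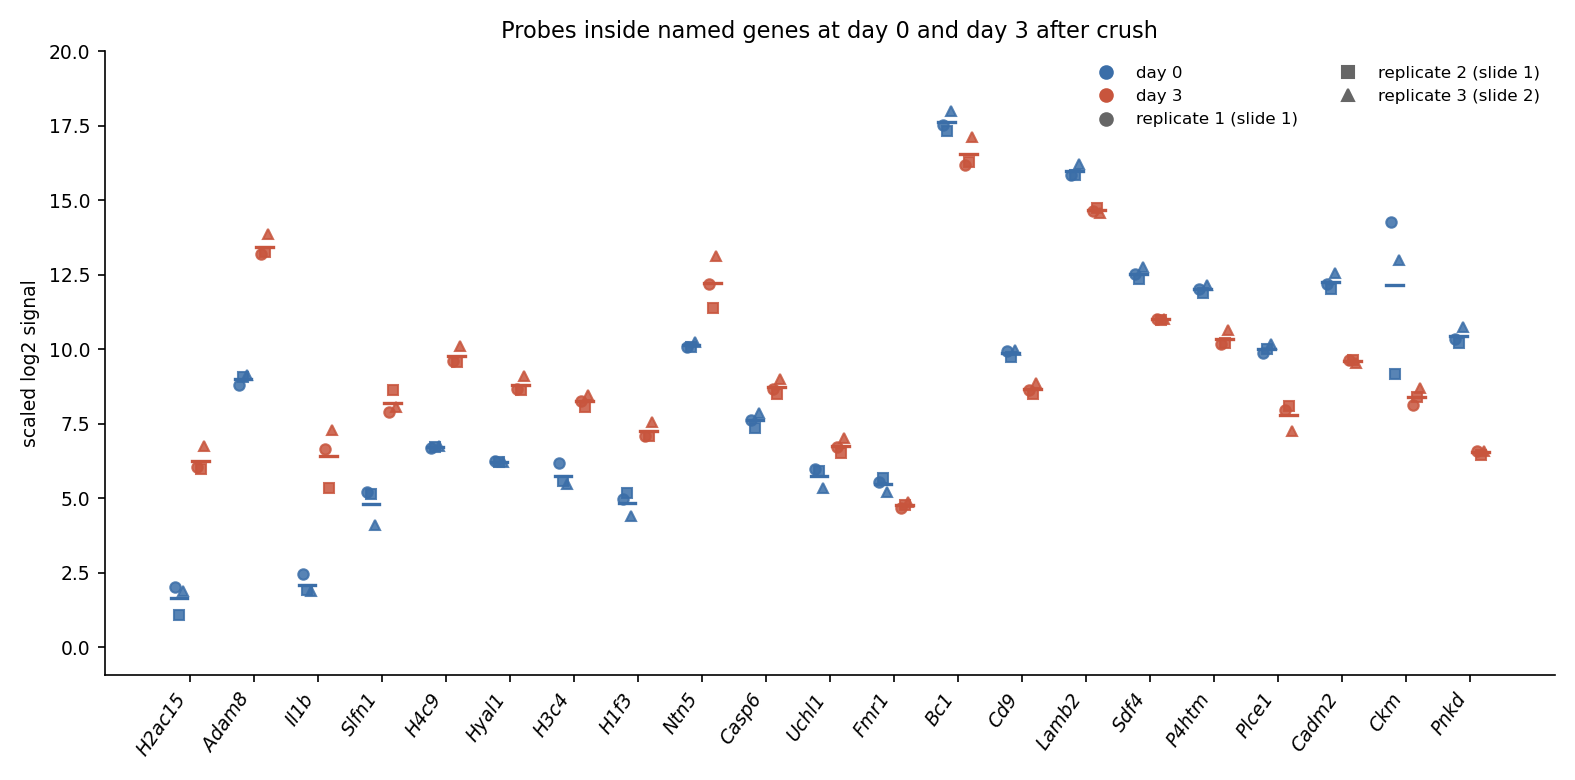
Scaled log2 signal (vertical axis) of probes within 21 named genes, ordered by log2 fold change, on each array of day 0 (blue) and day 3 (red); bars are group means and shapes are replicates. Adam8, Il1b and the histone genes H2ac15, H4c9, H3c4 and H1f3 lie higher on every day 3 array, and Ckm spreads from 9.18 to 14.26 within day 0.

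The probe in Ckm, the creatine kinase of skeletal muscle, varied widely between the day 0 pools. It read 14.26, 9.18 and 12.99 at day 0 and 8.11, 8.40 and 8.71 at day 3, with a mean of 12.15 ± 2.65 (SD, n = 3) at day 0. Its log2 fold change was -3.74 (SE 1.25, adjusted p = 0.0316), and without day 0 replicate 1 it was -2.68 (adjusted p = 0.122). Leaving out day 0 replicate 3 or any day 3 array also ended the call, with adjusted p between 0.0561 and 0.0895, as did the fit within slide 1 (adjusted p = 0.152). Over all tested probes, 32 spread over more than 4 log2 units within day 0, and all 32 had the order of the Ckm probe, replicate 1 highest and replicate 2 lowest. Of these 32, 16 were called lower and none higher, beside 22.7% lower over all probes. The day 0 values that picked them also enter the call, so this count is no independent result. Of the 587 probes that spread over more than 2 log2 units within day 0, 91 had the order of the Ckm probe. Among the others, 256 had replicate 1 highest and 3 lowest and 213 had replicate 2 highest and 3 lowest. Within day 3, 812 probes spread over more than 2 log2 units and 19 over more than 4. Of the planned list of skeletal muscle genes only Ckm and Eno3 were read here, and both were called lower. The probe in Eno3, the muscle enolase, had a log2 fold change of -0.38 (SE 0.13, adjusted p = 0.0388), and its day 0 values of 10.33, 10.06 and 9.92 did not have the order of the Ckm probe. The part of muscle RNA in these values was not tested.

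The largest differences among unnamed probes that were well above background on all 6 arrays are given with the sequence that identifies them.
MOUSELNCRNA_19069: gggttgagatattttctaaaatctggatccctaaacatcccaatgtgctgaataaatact
MOUSELNCRNA_61577: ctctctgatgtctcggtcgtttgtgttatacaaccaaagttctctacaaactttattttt
MOUSELNCRNA_63345: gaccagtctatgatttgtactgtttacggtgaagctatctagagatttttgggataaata
MOUSELNCRNA_66483: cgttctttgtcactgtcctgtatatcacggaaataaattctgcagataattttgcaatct
MOUSELNCRNA_19069 read 5.64, 6.45 and 5.61 at day 0 and 15.24, 14.34 and 15.95 at day 3, and MOUSELNCRNA_61577 read 5.06, 4.71 and 4.86 at day 0 and 13.82, 13.74 and 14.60 at day 3. These are log2 fold changes of 9.28 (SE 0.46) and 9.17 (SE 0.23). MOUSELNCRNA_63345 read 15.79, 15.76 and 15.85 at day 0 and 8.26, 9.53 and 8.79 at day 3, a log2 fold change of -6.94 (SE 0.36). MOUSELNCRNA_66483 read 16.26, 9.82 and 14.92 at day 0, in the order of the Ckm probe, and 5.89, 5.82 and 9.27 at day 3. Its log2 fold change was -6.67 (SE 1.88, adjusted p = 0.0134), and without day 0 replicate 1 the adjusted p was 0.0565.

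Agreement between the slides was read from arrays that do not overlap. Within slide 1, 47.4% of probes were called, and 97.2% of these 29770 had the same sign in the replicate 3 arrays of slide 2. Of the 122 hairpins called within slide 1, 118 had the same sign on slide 2, and all 24 that differed by at least 2-fold did. A test of whether the day 3 difference itself differed between slides, with 2 residual degrees of freedom, gave 0 probes at a limma adjusted p below 0.05 and 10376 at an unadjusted p below 0.05, which is 16.5% of those tested. Differences of size between the slides are thus seen before adjustment.

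**Figure D5:**
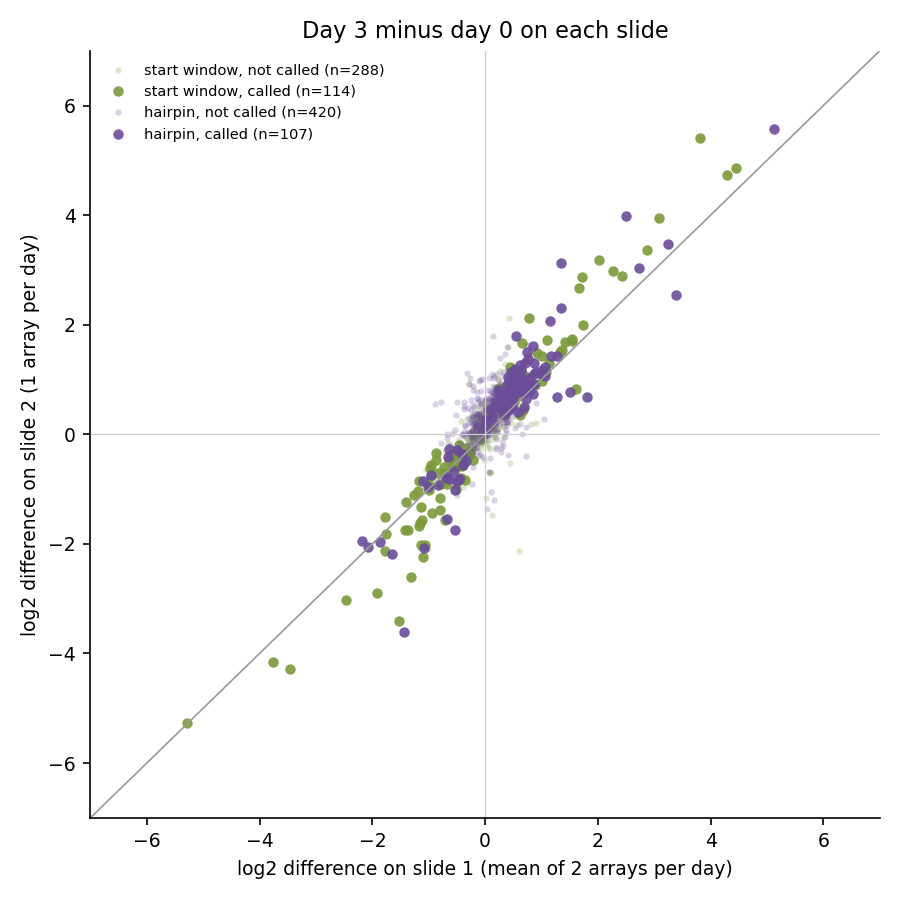
Log2 difference between day 3 and day 0 on slide 1 (horizontal axis, mean of 2 arrays per day) and on slide 2 (vertical axis, 1 array per day) for tested hairpin probes (purple) and start-window probes (green), with called probes as large dots; the diagonal marks equal differences. Every called hairpin lies in the lower left or upper right quadrant, which the call favours, since it used the arrays of both slides.

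The same probes at the later days are given side by side, without a test of the difference, since all use the day 0 arrays. All day 14 arrays lay on slide 3 and the day 7 arrays on slides 2 and 3. Slide 3 held no day 0 or day 3 array, so at day 14 day and slide cannot be told apart. Mir147 was 5.27, 4.65 and 3.33 above day 0 on the log2 scale at days 3, 7 and 14, and Mir21a was 2.83, 3.27 and 2.37 above it. Mir763 was 2.99, 1.04 and 0.06 above day 0. Mir100 was at -1.90, -0.73 and -0.22, and Mir218-1 at -2.10, -0.81 and -0.72. Mir6363 stayed near its day 3 difference, with -1.84, -2.14 and -1.93. H4c9 was 3.03, 2.21 and 2.04 above day 0, and Adam8 4.43, 3.13 and 2.91. Of these probes, Mir763 and Mir100 lay closest to their day 0 level at day 14.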

How the data were processed

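Total RNA was amplified, labelled with Cy3 and hybridised to 12 one-colour arrays, per the labels' protocols. Spot intensity in the deposited scanner files is background-subtracted and was not normalized between arrays; it came from Feature Extraction, version 10.7.1.1 per the file headers and 10.7 per the submitters' processing notes. The authors' deposited series table holds log2 values with a median of 6.42 in every column, and each column correlated with its array's signals at 0.993 or more; the normalization behind it is not given in the sources used here.

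Control and outlier spots were left out, log2 signals of repeated spots averaged, and the 75th percentile of every array was brought to 9.34. Over all 12 arrays a mean for each day was fitted in limma 3.58.1 (R 4.3.3) with 8 residual degrees of freedom. The method was tested on simulated data. Tables were made with Python 3.11.15 and pandas 2.3.3. P-values measure the spread between the arrays of a day, which mixes pools with slides, since this fit holds no slide term. Same-numbered arrays of days 0 and 3 share a slide, and their deviations from the day means correlated at 0.325, 0.449 and 0.590. Replicates 1 and 2 of both days lie on slide 1, and correlations between different numbers are not given. Whether the replicate numbers pair the pools thus cannot be told here.

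The members and lists were chosen with earlier results of these data known. The rule for names took, among called probes that all 6 arrays saw above background and unsaturated, with no overlap of the days, the 6 largest rises and 6 largest falls with a matched hairpin, the same with a matched gene window, up to 5 bounds each way, 2 unnamed rises and falls, and called members of the planned lists. Naming by hairpins and windows was needed because no transcripts were used here. Pairs of sense and antisense probes and protein identity were therefore not run. No gene to be named in every case was matched to its own start window. The planned lists of 646 genes were reached only through probes in or opposite 9 genes. Alternatives were other scalings, normexp background correction with an offset of 50, the authors' log2 values, other background filters, slide and replicate blocks, fits within slides, a variance trend, only 6 arrays and leaving out each array.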

Additional observations from a re-analysis of the deposited data

How the results depend on the processing

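The direction of all 36 named probes was the same under every alternative run, and 660 of 676 alternative values kept the call. The 16 that lost it belonged to Mir7653, Mir214, Mirlet7f-1, Mir29b-2, Nek2, Ckm and 1 unnamed probe. All 36 probes were named for large called differences on these same arrays, which most alternatives use again. Kept directions and calls were thus favoured in advance and do not speak for the other probes. The fit with the replicate number as a block called 30130 probes. It ended no call of the 36 and 13 of the other hairpin calls, while 115 hairpins rose and 32 fell. Leaving out 1 array gave 61 to 80 hairpins that rose and 20 to 30 that fell. Fits within slide 2, with 1 array per day and a spread taken from its day 7 arrays, called 16361 probes, of which 7783 rose and 8578 fell, 40 hairpins that rose and 32 window probes that fell. With slide as a fixed block 135 hairpins and 80 window probes rose. With only the 6 arrays of both days 52 hairpins rose, and with normexp background correction 12 fell. Counting a probe as bounded when seen on at most 1 array of the dim day, rather than none, gave 1363 falls instead of 719. The cause of these shifts was not tested, except that the last counts more probes by construction. Matching the whole probe to the hairpin, or requiring every probe of a hairpin to be called, both chosen after seeing the data, gave the same 81 rises and 26 falls, and leaving out probes that share 25 bases with others gave 69 and 23. Only 22 hairpins had several tested probes. A called hairpin with 1 tested probe meets the second condition by its call alone, so the unchanged counts were largely fixed in advance. Signal near background limits Mir223, Mir29a, Mir29b-2 and Il1b to bounds.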

Other observations

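The hairpins of the imprinted region on chromosome 12 form some of the largest microRNA clusters of the mouse. In the cluster with 15 tested hairpins none was called, with log2 differences from -0.29 to 0.79 and a median of 0.23. In the neighbouring cluster with 8 tested hairpins only Mir432 rose, by 0.43 on the log2 scale (SE 0.14, adjusted p = 0.0258).

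Rises were also seen for hairpins in Dgcr8 and in host genes of small nucleolar RNAs, chosen after their values were seen. Mir1306 and Gm24572, both in Dgcr8, a gene of the complex that cuts hairpins from primary transcripts, rose by 0.76 and 0.75 on the log2 scale (limma adjusted p = 0.0262 and 5.99e-04), and with the replicate number as a block Mir1306 lost its call (adjusted p = 0.0533). Mir3069 in Snhg10 rose by 0.95 with both of its probes, and Mir6516 in Snhg20 by 0.69 (SE 0.16, adjusted p = 0.00517). Mir155, known from activated leukocytes, was not called, at -0.17 (adjusted p = 0.525). Mir221 and Mir222 were not called, at 0.73 and 0.64 (adjusted p = 0.101 and 0.206), and with a fixed slide block both passed (adjusted p = 0.0204 and 0.0468).

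The 3 bright probes Mir692-1, Mir692-2 and Mir682 share at least 25 bases with 6, 9 and 9 other probes, read at 15.69 to 17.77 on all 6 arrays and rose by 1.07, 1.11 and 0.78 on the log2 scale. Which RNA they read is uncertain.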
